A study of Mus musculus with 4 samples.

Results

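The chemokine ligands examined here are 10 genes that macrophages can express, 7 of the CC family (Ccl2, Ccl3, Ccl4, Ccl5, Ccl6, Ccl7 and Ccl9) and 3 of the CXC family (Cxcl1, Cxcl2 and Cxcl10). They are defined by gene symbol and not by a threshold on their values, and all 10 were among the 13834 genes of the deposited table. RNA was sequenced from peritoneal macrophages of 2 Dnmt1fl/fl and 2 Dnmt1KO samples, to ask what loss of the maintenance DNA methyltransferase Dnmt1 does to gene expression. Both groups carry a floxed Dnmt1 gene, and the Dnmt1fl/fl samples are labelled wt. In Dnmt1KO, labelled as a myeloid-specific knockout, Cre recombinase is driven by the LysM promoter, so deletion depends on that promoter having been active in a cell. The mice were 10 weeks old and received thioglycolate broth into the abdomen 3 days before the cells were washed out. Such lavage gathers recruited cells beside macrophages. The methods name culture after centrifugation but no sort, and neither they nor the labels say whether a sample is 1 animal or a pool, or whether the Dnmt1fl/fl mice carry Cre.

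Chemokines are small secreted proteins that attract leukocytes through receptors coupled to G proteins, and the CC and CXC families are named for the spacing of conserved cysteines. Macrophages switch on many of these genes when pattern recognition receptors activate NF-κB or interferon regulatory factors, and the messages of several inflammatory chemokines are short-lived. CCR2 ligands draw monocytes, Ccl3, Ccl4 and Ccl5 draw monocytes and T cells, CXCR2 ligands draw neutrophils, and the interferon-inducible CXCR3 ligands draw activated T cells.

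All members lie in gene clusters (GRCm38, GENCODE M21). On chromosome 11 the order is Ccl2 (82035571 to 82037453), Ccl7 (82045712 to 82047525), Ccl5 (83525778 to 83530518), Ccl9 (83572919 to 83578636), Ccl6 (83587882 to 83593087), Ccl3 (83647844 to 83649355) and Ccl4 (83662584 to 83664683). Ccl2 and Ccl7 are 8.26 kb apart, Ccl9 and Ccl6 9.25 kb, and Ccl3 and Ccl4 13.2 kb, while 1478 kb separate Ccl7 from Ccl5. On chromosome 5, Cxcl1 (90891241 to 90893115) and Cxcl2 (90903871 to 90905938) are 10.8 kb apart, and Cxcl10 (92346638 to 92348889) lies 1441 kb further on. The longest coding transcript has 4 exons in Ccl6, Ccl9 and Cxcl1 and 3 exons in the other members. Of the exon bases of Cxcl10, 5.91% also belong to Art3 on the opposite strand, and since the strand setting of the counting is not stated, its reads and those of Art3 cannot be told apart there. For Cxcl2, 3.05% of its 100-base stretches also occur in its neighbour Cxcl3, so a small part of its count could be shared.

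The 250 bases before the start are shown for the CXC ligands and for Ccl6 and Ccl9, the most abundant members, because Dnmt1 acts on CpG dinucleotides and because these genes differ in CpG and in inflammatory motifs (RefSeq, GRCm38.p6, 5′ to 3′ on the gene's strand). Capitals mark matches, on either strand, to an NF-κB motif (GGGA, any 2 bases, TTCC), an interferon-stimulated response element (GAAA, any 2 bases, GAAA) and the TATA box TATAAA.
Cxcl1, chr5:90890995-90891244, plus strand: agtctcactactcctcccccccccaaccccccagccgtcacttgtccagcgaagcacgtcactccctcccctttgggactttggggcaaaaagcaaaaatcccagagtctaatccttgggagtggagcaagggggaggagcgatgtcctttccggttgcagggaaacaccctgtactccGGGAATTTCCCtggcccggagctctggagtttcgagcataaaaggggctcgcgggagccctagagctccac
Cxcl2, chr5:90903649-90903898, plus strand: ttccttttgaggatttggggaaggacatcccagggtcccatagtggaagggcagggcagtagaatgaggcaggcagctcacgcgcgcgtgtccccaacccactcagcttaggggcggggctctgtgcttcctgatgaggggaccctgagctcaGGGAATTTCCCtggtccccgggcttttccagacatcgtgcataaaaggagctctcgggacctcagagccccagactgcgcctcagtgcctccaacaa
Cxcl10, chr5:92348890-92349139, minus strand: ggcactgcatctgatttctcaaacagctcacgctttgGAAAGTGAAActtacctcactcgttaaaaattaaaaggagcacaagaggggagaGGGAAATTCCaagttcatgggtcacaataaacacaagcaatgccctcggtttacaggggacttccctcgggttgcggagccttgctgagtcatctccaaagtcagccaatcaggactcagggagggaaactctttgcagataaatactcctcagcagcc
Ccl6, chr11:83593088-83593337, minus strand: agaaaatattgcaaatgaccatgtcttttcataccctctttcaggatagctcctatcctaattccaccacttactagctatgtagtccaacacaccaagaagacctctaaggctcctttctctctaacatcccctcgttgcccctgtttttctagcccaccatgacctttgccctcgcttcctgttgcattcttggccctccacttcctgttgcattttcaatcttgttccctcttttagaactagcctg
Ccl9, chr11:83578637-83578886, minus strand: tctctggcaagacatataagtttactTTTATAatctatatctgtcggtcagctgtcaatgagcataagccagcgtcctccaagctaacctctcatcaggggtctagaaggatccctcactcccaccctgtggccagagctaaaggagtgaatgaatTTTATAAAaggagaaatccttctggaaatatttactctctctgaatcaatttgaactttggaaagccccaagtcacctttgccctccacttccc

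RefSeq windows were matched for 6 members, these and Ccl3; Ccl2, Ccl4, Ccl5 and Ccl7 were not analysed here. The NF-κB motif occurred once in Cxcl1, Cxcl2 and Cxcl10, with its first base 71, 97 and 159 bases before the start, and in 397 of the 32851 windows of all genes (1.21%). Cxcl10 also held the interferon motif, 213 bases before the start, a motif found in 2.98% of all windows. Ccl9 held the TATA box at 224 and 94 bases before the start, where adjoining and overlapping matches were merged, and 12.4% of all windows held it. The windows of Ccl3 and Ccl6 had no match to these 3 motifs. CpG dinucleotides numbered 10 in Cxcl1, 9 in Cxcl2, 5 in Cxcl10 and 2 each in Ccl9, Ccl6 and Ccl3, beside a median of 6 over all genes. A count of 2 or fewer was found in 29.0% of all windows. The windows of Cxcl1 and Cxcl2 shared a run of 14 bases, GGGAATTTCCCTGG, that covers the NF-κB motif, and the other 14 pairs of member windows shared runs of 7 to 13 bases. These matches are descriptions of sequence, and methylation was not analysed here.

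Depth was 20228071 to 24198943 counts per sample. Levels are given as CPM, counts relative to the library total after scaling with edgeR's TMM method, and between genes as FPKM, which is CPM per kilobase of exon. Dnmt1, the deleted gene (chromosome 9, 20907209 to 20959888), was at 86.6 and 67.0 CPM in Dnmt1fl/fl replicates 1 and 2 and at 37.0 and 42.7 CPM in Dnmt1KO replicates 1 and 2, a log2 fold change of -0.95 (standard error 0.24, edgeR adjusted p = 1.00). Both Dnmt1KO samples lay below both Dnmt1fl/fl samples for this gene, and its unadjusted edgeR p was 0.0084. The test thus did not call the deleted gene itself after adjustment, so the lack of a call does not show that a gene was unchanged. Over all 12542 genes tested with edgeR's quasi-likelihood test, 0 had an adjusted p and 35 an unadjusted p under 0.05, while DESeq2 called 1 gene and limma-voom 0 after adjustment. The common dispersion gave a coefficient of variation of 28.9% between replicates. All 9 macrophage markers listed were measured, with Adgre1, Csf1r, Itgam and Cd68 among them. Their summed level was 34981 to 35999 CPM in Dnmt1fl/fl and 18435 to 21886 CPM in Dnmt1KO, most of it from Lyz2, the gene that carries the LysM promoter. Without Lyz2 the other 8 markers summed to 6393 to 6469 CPM in Dnmt1fl/fl and 6142 to 7083 CPM in Dnmt1KO, which overlapped. The labels do not tie replicates to separate animals, and the study defines n only in general, as independent repeats or as animals. The p-values therefore measure the spread between these samples, which may be technical.

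None of the chemokine ligands differed between the genotypes by the test, and none separated the samples by genotype. Of the 10 members, 9 passed edgeR's filter on low counts, and Cxcl1 did not. The number with an adjusted p under 0.05 was 0 of 9, where the share of all genes tested was 0%, and DESeq2 and limma-voom also called 0. At an unadjusted p under 0.05 the number was again 0 of 9, and 0.279% of all genes tested passed this limit. With 1 sample left out this count was 3 without Dnmt1KO replicate 1 (Ccl2, Ccl7 and Cxcl2, with 352 genes in all), 1 without Dnmt1KO replicate 2 (Ccl3, with 3521 genes in all) and 0 without either Dnmt1fl/fl sample. The genotypes overlapped in every one of the 9 tested members, whereas 16.7% of all genes tested had both Dnmt1KO samples on one side of both Dnmt1fl/fl samples. Log2 fold changes of Dnmt1KO over Dnmt1fl/fl were above 0 for 4 members and below 0 for 5, with a median of -0.05 beside 0.0046 over all genes. On the log2(CPM + 0.5) scale, the difference between genotype means was larger than the pooled SD between replicates in 0 of the 9. The smallest two-sided p that exact permutation of 2 against 2 samples allows for a gene is 0.333. In bulk RNA, fewer cells of a type and less RNA per cell cannot be told apart, which holds for every level given here.

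**Figure D1:**
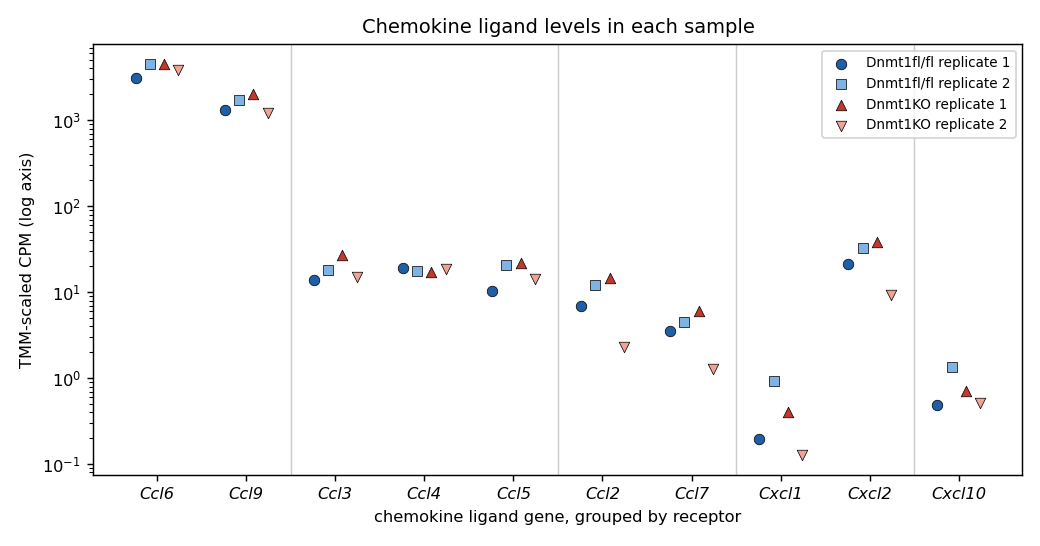
Level of each chemokine ligand gene in each of the 4 samples, in TMM-scaled CPM on a log axis; 1 point is 1 sample, blue for Dnmt1fl/fl and red for Dnmt1KO, and vertical lines separate groups by main receptor. In each gene the red and blue points overlap, and Dnmt1KO replicate 2 lies well below the other samples for Ccl2, Ccl7 and Cxcl2.

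Per length of exon, the members spanned a wide range. Ccl6 was highest, at a mean of 2230 FPKM over the 4 samples, and ranked 14 among the 12380 tested genes with an exon length. Ccl9 followed at 512 FPKM and ranked 76. After a wide gap came Ccl4 at 27.6, Ccl3 at 24.2, Ccl5 at 17.5, Cxcl2 at 12.3, Ccl2 at 7.86 and Ccl7 at 4.80 FPKM. Cxcl10 at 0.339 and Cxcl1 at 0.219 FPKM were lowest. The sample values of Ccl6 (1717 to 2541 FPKM) lay above those of Ccl9 (396 to 662 FPKM), and these above all others, and Cxcl10 (0.216 to 0.602 FPKM) lay below Ccl7 (1.59 to 7.56 FPKM). The ranges of every other pair of neighbours in this order overlapped across samples. Compared within each sample, however, all of these pairs but Ccl4 and Ccl3 kept the order in all 4 samples. Ccl3 was above Ccl4 only in Dnmt1KO replicate 1, at 35.7 against 26.2 FPKM. Ccl6 and Ccl9 together made up 98.1% to 98.8% of the summed CPM of the 10 members, and the 10 genes took 0.452% to 0.658% of all counts in a sample.

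Ccl6 and Ccl9 encode ligands of CCR1 that macrophages make in quantity without an inflammatory stimulus. Ccl6 was at 3083 and 4518 CPM in Dnmt1fl/fl replicates 1 and 2 and at 4562 and 3850 CPM in Dnmt1KO replicates 1 and 2. The Dnmt1KO values fell within or just beyond the Dnmt1fl/fl pair, and the means were 3800 ± 1015 and 4206 ± 503 CPM (SD, n = 2 each), a log2 fold change of 0.15 (standard error 0.31, edgeR adjusted p = 1.00). Ccl9 was at 1300 and 1720 CPM in Dnmt1fl/fl and at 2015 and 1207 CPM in Dnmt1KO. Here the highest and the lowest sample were both Dnmt1KO, and the log2 fold change was 0.09 (standard error 0.34). With library totals in place of TMM the sign turned, to -0.0044. The ratio of Ccl6 to Ccl9 in FPKM was 4.02 and 4.46 in Dnmt1fl/fl and 3.84 and 5.41 in Dnmt1KO, so their proportion also overlapped between genotypes.

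Ccl3, Ccl4 and Ccl5 encode MIP-1α, MIP-1β and RANTES, which attract monocytes and T cells. Ccl3 was at 14.0 and 17.9 CPM in Dnmt1fl/fl and at 27.3 and 14.8 CPM in Dnmt1KO. Its log2 fold change of 0.40 (standard error 0.36, edgeR adjusted p = 1.00) was the highest of the tested members, and it came from Dnmt1KO replicate 1, since replicate 2 lay between the Dnmt1fl/fl samples. Without Dnmt1KO replicate 1 the log2 fold change was -0.11, and without replicate 2 it was 0.77 (edgeR adjusted p = 0.0623). Ccl4, 13.2 kb away, was the steadiest member, at 19.3 and 17.8 CPM in Dnmt1fl/fl and 17.3 and 18.5 CPM in Dnmt1KO. Its highest value was 1.12 times its lowest, and the log2 fold change was -0.05 (standard error 0.22). The ratio of Ccl3 to Ccl4 in CPM accordingly moved with Ccl3, at 0.727 and 1.01 in Dnmt1fl/fl and 1.58 and 0.803 in Dnmt1KO. Ccl5 was at 10.4 and 20.6 CPM in Dnmt1fl/fl and at 21.9 and 14.3 CPM in Dnmt1KO. Its Dnmt1fl/fl samples differed by 0.95 on the log2(CPM + 0.5) scale, a gap that 2.83% of tested genes reached, and the genotype difference was 0.22 (standard error 0.41).

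Ccl2 and Ccl7 encode MCP-1 and MCP-3, the ligands of CCR2 that call monocytes out of bone marrow and into inflamed tissue. Ccl2 was at 6.92 and 12.1 CPM in Dnmt1fl/fl and at 14.4 and 2.29 CPM in Dnmt1KO, from 142, 304, 286 and 54 counts. The 2 Dnmt1KO samples were thus the highest and the lowest of the 4, differing 6.31-fold, and the means of 9.52 ± 3.68 and 8.36 ± 8.59 CPM (SD, n = 2 each) gave a log2 fold change of -0.19 (standard error 0.82, edgeR adjusted p = 1.00). Ccl7 was at 3.51 and 4.55 CPM in Dnmt1fl/fl and at 6.06 and 1.27 CPM in Dnmt1KO, from 72, 114, 120 and 30 counts. Its order of samples was that of Ccl2, with a 4.77-fold difference between the Dnmt1KO samples and a log2 fold change of -0.14 (standard error 0.72). The ratio of Ccl2 to Ccl7 in CPM stayed between 1.80 and 2.67 in all 4 samples. Without Dnmt1KO replicate 1 the log2 fold changes were -2.06 for Ccl2 (edgeR adjusted p = 0.524) and -1.66 for Ccl7. Without Dnmt1KO replicate 2 they were 0.60 (edgeR adjusted p = 0.263) and 0.59 (edgeR adjusted p = 0.295). They were also above 0 without Dnmt1fl/fl replicate 2, at 0.28 and 0.07, so the direction turned on which samples were included.

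Cxcl1 and Cxcl2 encode ligands of CXCR2 that attract neutrophils. Cxcl2 was at 21.0 and 32.6 CPM in Dnmt1fl/fl and at 38.7 and 9.24 CPM in Dnmt1KO. As for Ccl2 and Ccl7, the Dnmt1KO samples bracketed the Dnmt1fl/fl samples, with a 4.19-fold difference between them and a log2 fold change of -0.16 (standard error 0.65, edgeR adjusted p = 1.00). The log2 fold change was -1.54 without Dnmt1KO replicate 1 (edgeR adjusted p = 0.524) and 0.53 without replicate 2 (edgeR adjusted p = 0.192), and it was 0.20 without Dnmt1fl/fl replicate 2. Cxcl1, 10.8 kb from Cxcl2 and with the shared run of bases printed above, was near the detection limit. Its counts with exact Poisson 95% intervals were 4 (1.09 to 10.2) and 23 (14.6 to 34.5) in Dnmt1fl/fl and 8 (3.45 to 15.8) and 3 (0.619 to 8.77) in Dnmt1KO. The intervals hold counting error alone, because reads copied by PCR do not count separate molecules, and Dnmt1KO replicate 2 sits at the 3 counts taken as the floor, so no fold change is given. Its lowest sample, Dnmt1KO replicate 2, was also the lowest for Cxcl2.

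Cxcl10 encodes IP-10, an interferon-inducible ligand of CXCR3. It was at 0.487 and 1.36 CPM in Dnmt1fl/fl and at 0.707 and 0.508 CPM in Dnmt1KO, from 10 (4.80 to 18.4), 34 (23.5 to 47.5), 14 (7.65 to 23.5) and 12 (6.20 to 21.0) counts. Only Dnmt1fl/fl replicate 2 stood above the others, and the Dnmt1KO samples lay between the Dnmt1fl/fl samples. The log2 fold change was -0.61 (standard error 0.70, edgeR adjusted p = 1.00), the furthest from 0 among the tested members, and it was 0.32 without Dnmt1fl/fl replicate 2.

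**Figure D2:**
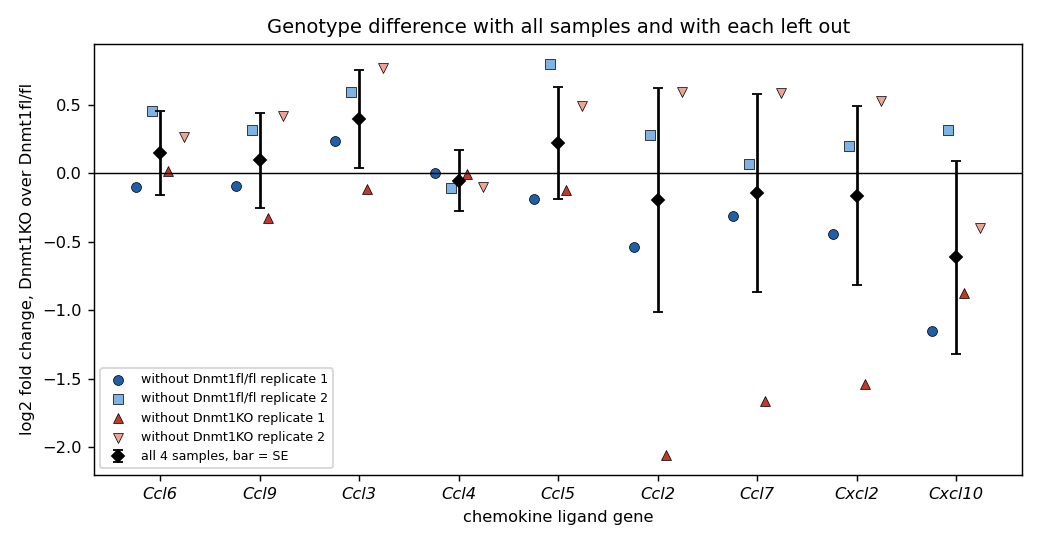
Log2 fold change of Dnmt1KO over Dnmt1fl/fl for the 9 tested chemokine ligands; black diamonds are the edgeR fit of all 4 samples with bars of 1 standard error, and coloured points are the fits with 1 sample left out. For Ccl2, Ccl7 and Cxcl2 the fit without Dnmt1KO replicate 1 lies between -2.06 and -1.54 and that without Dnmt1KO replicate 2 between 0.53 and 0.60, and none of the 9 genes keeps its sign in every such fit.

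The median pooled SD was 0.47 on the log2(CPM + 0.5) scale in the 9 tested members and 0.27 over all genes tested. The Dnmt1KO samples differed by 2.42 in Ccl2, 2.01 in Cxcl2 and 1.89 in Ccl7 on this scale, where the median gap over all genes was 0.45. Gaps as large were seen in 0.789%, 1.85% and 2.31% of tested genes. Ccl4 was at the other end, and 88.6% of tested genes had a gap at least as large as its 0.09 between the Dnmt1KO samples. Dnmt1KO replicate 1 was the highest sample in 7 of the 9 tested members, beside 38.8% of all genes tested. Dnmt1KO replicate 2 was the lowest in 4 of them, Ccl2, Ccl7, Ccl9 and Cxcl2, beside 25.8% of all genes tested. The Dnmt1fl/fl samples differed less in general, with a median gap of 0.19, and here replicate 2 was above replicate 1 in every member but Ccl4.

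**Figure D3:**
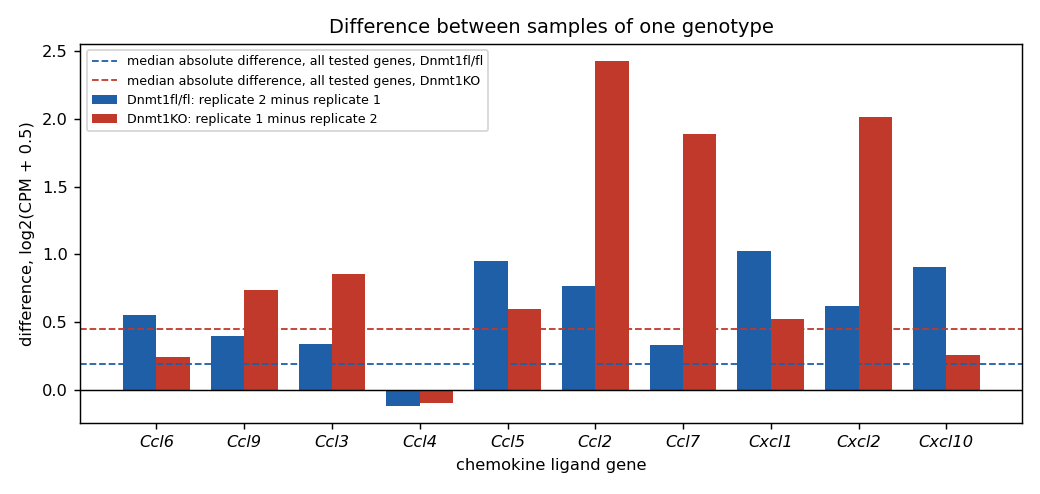
Difference between the samples of each genotype for the 10 chemokine ligands, in log2(CPM + 0.5); blue bars are Dnmt1fl/fl replicate 2 minus replicate 1, red bars Dnmt1KO replicate 1 minus replicate 2, and dashed lines the median absolute difference over all tested genes. The red bars of Ccl2, Cxcl2 and Ccl7 reach 2.42, 2.01 and 1.89, against a dashed red line at 0.45.

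Markers of other cells differed between the same samples. The neutrophil markers, of which 9 of 13 were in the table and Camp, Elane, Mpo and Ngp were not analysed here, summed to 228 and 328 CPM in Dnmt1fl/fl and to 908 and 226 CPM in Dnmt1KO. Mesothelial and fibroblast markers (7 of 7) summed to 26.6 and 36.5 CPM in Dnmt1fl/fl and to 73.7 and 18.3 CPM in Dnmt1KO. Like Ccl2, Ccl7 and Cxcl2, both lists were highest in Dnmt1KO replicate 1. Mesothelial and fibroblast markers were also lowest in Dnmt1KO replicate 2. Neutrophil markers were nearly equal in Dnmt1KO replicate 2 and Dnmt1fl/fl replicate 1, at 226 and 228 CPM. B cell markers (7 of 7) went the other way, at 323, 487, 130 and 531 CPM in the same order of samples, lowest in Dnmt1KO replicate 1 and highest in Dnmt1KO replicate 2. Those of resident large peritoneal macrophages (9 of 9), at 478, 373, 156 and 438 CPM, were lowest in Dnmt1KO replicate 1 and highest in Dnmt1fl/fl replicate 1 in sum. All 9 had log2 fold changes below 0 (median -0.44), with 0 at an unadjusted edgeR p under 0.05. Timd4 was at 91.4 and 140 CPM in Dnmt1fl/fl and at 67.6 and 78.8 CPM in Dnmt1KO. Icam2 was at 41.4 and 72.2 CPM in Dnmt1fl/fl and at 28.4 and 40.5 CPM in Dnmt1KO. These were the only 2 of the 9 with both Dnmt1KO samples below both Dnmt1fl/fl samples, beside 8.56% of all genes tested. In the other markers of this list, Dnmt1KO replicate 2 lay between the Dnmt1fl/fl samples or above both. Log2 fold changes were above 0 in 8 of 8 tested neutrophil markers and below 0 in 7 of 7 B cell markers. Again 0 of these had an unadjusted edgeR p under 0.05. Recruited monocyte markers (7 of 7) lay between 1169 and 1756 CPM and T and NK cell markers (10 of 10) between 28.9 and 47.4 CPM, and in both sums the range of Dnmt1KO was inside that of Dnmt1fl/fl. Within the monocyte list, however, Ly6c2, Chil3, F10 and Vcan each had the order of samples of Ccl2, from Dnmt1KO replicate 1 through Dnmt1fl/fl replicates 2 and 1 to Dnmt1KO replicate 2, while Ccr2 was lowest in Dnmt1KO replicate 1. This order was seen in 4 of 7 tested monocyte markers, 4 of 7 mesothelial and fibroblast markers, 1 of 8 neutrophil markers, 4 of the 9 tested members (Ccl2, Ccl7, Ccl9 and Cxcl2) and 14.1% of all genes tested. The order was taken from Ccl2 in these same data, so Ccl2 counts by definition and the members' count is no test. Eosinophil (3 of 5; Epx and Prg2 were not analysed here), mast cell (6 of 6) and dendritic cell (6 of 6) markers summed to between 7.67 and 53.1 CPM in any sample. All marker genes in the table were above 0 in every sample, as the table lists only such genes. The part of these cells in the ligands' levels was not tested.

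**Figure D4:**
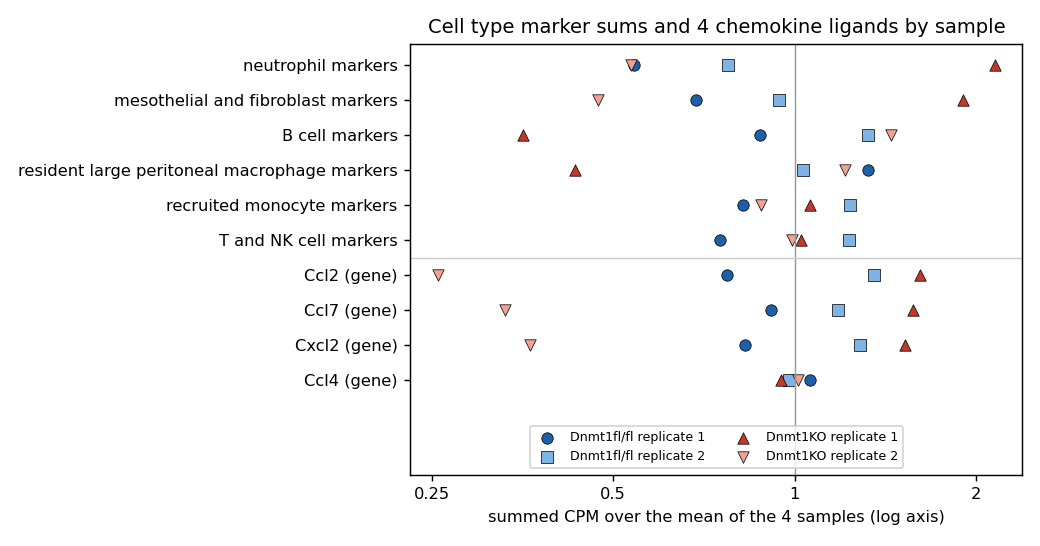
Summed CPM of 6 lists of cell type markers (above the line) and CPM of 4 chemokine ligand genes (below it) in each sample, divided by the mean of the 4 samples, on a log axis. Dnmt1KO replicate 1 is highest for neutrophil and mesothelial markers and for Ccl2, Ccl7 and Cxcl2, and lowest for B cell and resident macrophage markers, while Ccl4 is nearly level.

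Of 27 other chemokine ligands listed, 17 were in the table and 14 were tested. None had an adjusted or an unadjusted edgeR p under 0.05, with 9 log2 fold changes above 0 and 5 below, and a median of 0.06. Pf4, a CXC chemokine of platelets and macrophages, was at 94.6 and 84.0 CPM in Dnmt1fl/fl and 160 and 98.3 CPM in Dnmt1KO, a log2 fold change of 0.53 (standard error 0.30). Ccl22, a ligand of CCR4, was at 2.44 and 2.67 CPM in Dnmt1fl/fl and 1.82 and 1.14 CPM in Dnmt1KO, a log2 fold change of -0.79 (standard error 0.46). These were the only tested genes of the list whose genotypes did not overlap, 1 in each direction, where 8.14% of all genes lay higher and 8.56% lower. Ccl24, a ligand of CCR3 for eosinophils, was at 16.7, 34.1, 73.3 and 13.0 CPM in Dnmt1fl/fl replicates 1 and 2 and Dnmt1KO replicates 1 and 2, and Cxcl14 at 10.1, 14.3, 26.6 and 5.89 CPM. Both had the order of samples of Ccl2, as did Cxcl16 and Ppbp. These were 4 of the 14 tested ligands of the list (28.6%), beside 14.1% of all genes tested. Ppbp was at the floor of 3 counts (0.127 CPM) in Dnmt1KO replicate 2. Cxcl16, the transmembrane ligand of CXCR6, was at 57.3 and 59.0 CPM in Dnmt1fl/fl and 99.3 and 53.0 CPM in Dnmt1KO. Cxcl3, the neighbour of Cxcl2 and a further CXCR2 ligand, was at 0.438, 1.87, 1.82 and 0.127 CPM. Its lowest value, in Dnmt1KO replicate 2, sits at the floor of 3 counts.

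Receptors for the members were measured in the same RNA. Of 23 chemokine receptors listed, 19 were in the table and 17 were tested, and 0 had an adjusted or an unadjusted edgeR p under 0.05, with 8 log2 fold changes above 0 and 9 below. Ccr1, the receptor of Ccl6 and Ccl9, was at 193 and 274 CPM in Dnmt1fl/fl and 302 and 174 CPM in Dnmt1KO, a log2 fold change of 0.03 (standard error 0.35). Ccr2, the receptor of Ccl2 and Ccl7 and a mark of recruited monocytes, was at 498 and 682 CPM in Dnmt1fl/fl and 376 and 594 CPM in Dnmt1KO, a log2 fold change of -0.28 (standard error 0.32). Unlike its ligands it was lowest in Dnmt1KO replicate 1. Cxcr2, a receptor of neutrophils, was at 2.63, 12.6, 35.8 and 3.05 CPM, so its Dnmt1KO samples differed as the neutrophil markers did, a list it belongs to. Ccr3, an eosinophil receptor, was at 7.60, 4.35, 1.87 and 5.30 CPM, and Cxcr3, the receptor of Cxcl10, at 3.36, 3.99, 4.19 and 4.11 CPM. Cxcr3 was the only tested receptor without overlap between genotypes, 1 of 17 beside 16.7% of all genes tested, with a log2 fold change of 0.17 (standard error 0.34).

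Genes that act upstream of the ligands were read in the same way. Of 30 listed genes of NF-κB, Toll-like receptor, interferon regulatory factor and related signalling, all were tested and 0 had an adjusted or an unadjusted edgeR p under 0.05. Their log2 fold changes were above 0 for 11 and below 0 for 19, with a median of -0.13, and genotypes did not overlap in 6 of them, 2 higher and 4 lower, beside 16.7% of all genes tested. Cebpb, a transcription factor of inflammatory macrophages, was at 274 and 473 CPM in Dnmt1fl/fl and 621 and 261 CPM in Dnmt1KO, with the order of samples of Ccl2 and Cxcl2, which 5 of the 30 genes had (16.7%, beside 14.1% of all genes tested). Irf5, an interferon regulatory factor, was at 260, 291, 369 and 257 CPM, in the same order, and overlapped between genotypes. Tnfaip3, the A20 protein that restrains NF-κB, was at 93.9 and 66.7 CPM in Dnmt1fl/fl and 62.8 and 44.7 CPM in Dnmt1KO, a log2 fold change of -0.58 (standard error 0.29). Nfkbiz, a nuclear cofactor of NF-κB, was at 38.9 and 44.7 CPM in Dnmt1fl/fl and 14.4 and 34.9 CPM in Dnmt1KO, a log2 fold change of -0.76 (standard error 0.43). These last 2 are targets of NF-κB themselves, and their Dnmt1KO samples lay below the Dnmt1fl/fl samples without passing the test.

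Of 10 proteins listed that bind chemokine messages and change their stability, all were tested, 4 log2 fold changes were above 0 and 6 below, and 0 had an adjusted or an unadjusted edgeR p under 0.05. Zfp36l2 (554, 380, 319 and 551 CPM), Zfp36 (193, 179, 232 and 143 CPM) and Hnrnpd (100.3, 100.6, 141 and 86.1 CPM) had the highest CPM of these, and each overlapped between genotypes. Zc3h12a, the RNase Regnase-1, was at 19.7 and 23.0 CPM in Dnmt1fl/fl and 16.1 and 18.6 CPM in Dnmt1KO, the only one of the 10 without overlap, where the share of all genes tested was 16.7%. Of 18 immediate early genes, which respond to stimulation and to handling of cells, all were tested, 5 log2 fold changes were above 0 and 13 below, and again 0 passed either limit. Klf6 (440, 461, 457 and 376 CPM), Klf2 (272, 370, 361 and 281 CPM) and Atf3 (353, 219, 339 and 194 CPM) were the highest in CPM and overlapped. Btg2, at 78.2 and 99.5 CPM in Dnmt1fl/fl and 62.0 and 65.9 CPM in Dnmt1KO, and Egr1, at 13.5 and 11.3 CPM in Dnmt1fl/fl and 8.43 and 9.62 CPM in Dnmt1KO, were the 2 of 18 without overlap, both lower in Dnmt1KO, where 8.56% of all genes tested lay lower.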

How the data were processed

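Per the study's methods and the submitters' processing notes, the authors aligned 150 bp paired-end reads to mm10 with HISAT2 2.0.5, counted them per gene with featureCounts 1.5.0-p3 and tested them with DESeq2 1.20.0. The deposited values are estimated counts per gene, not normalized, of which 72.6% to 76.4% per sample are whole; how fractions arose is not given in the sources used here. The table lists only genes above 0 in every sample, and 9 rows repeat the symbol of an earlier row. A shorter table of the same values was not used. A floor of 3 counts equals 0.120 to 0.151 TMM-scaled CPM, depending on the sample.

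Counts were rounded, filtered with filterByExpr, scaled with TMM and compared with edgeR 4.0.16 (R 4.3.3; two-sided quasi-likelihood test, Benjamini-Hochberg adjustment over the 12542 genes tested). TMM factors ran from 0.910 to 1.04. Standard errors come from the quasi-likelihood statistic. FPKM is TMM-scaled CPM per kilobase of GENCODE M21 exons, and 98.5% of genes had a length. The fits were tested on simulated data. Replicate numbers come from the labels, which state no pairing. Other calculations used Python 3.11.15 and SciPy 1.17.1.

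The members, though defined by symbol, and the gene lists were chosen with earlier results of these data known. From each other list the 3 genes of highest mean CPM and the 2 of lowest unadjusted p were named, with any other tested ligand and the members' receptors. The results for 2 genes that this rule names are not reported here. Lyz2, the 4 other macrophage markers, the 4 monocyte markers, Timd4 and Icam2 were chosen after their values were seen. Results were recomputed with limma-voom (limma 3.58.1), with DESeq2 1.42.0, with other scalings and filters, with a replicate block, with a loess correction for exon length (span 0.5) and without each sample.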

Additional observations from a re-analysis of the deposited data

How the results depend on the processing

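No chemokine ligand passed an adjusted p under 0.05 in any of the fits. On all 4 samples, 89 of 90 recomputed log2 fold changes of the 9 tested members kept their direction under 10 alternatives, and Ccl9 with library totals only was -0.0044. Below 0 in every such fit, Ccl2, Ccl7 and Cxcl2 moved furthest, to -0.64, -0.49 and -0.46 with the replicate block and to -0.76, -0.59 and -0.50 with limma-voom. Library totals moved the median of all genes from 0.0046 to -0.06. Leaving out 1 sample turned 14 of 36 member fold changes. Without Dnmt1fl/fl replicate 1 these were Ccl4 (0.0049), Ccl5 (-0.19), Ccl6 (-0.10) and Ccl9 (-0.09), and without Dnmt1fl/fl replicate 2 they were Ccl2 (0.28), Ccl7 (0.07), Cxcl2 (0.20) and Cxcl10 (0.32). Without Dnmt1KO replicate 1 they were Ccl3 (-0.11), Ccl5 (-0.13) and Ccl9 (-0.33), and without Dnmt1KO replicate 2 Ccl2 (0.60), Ccl7 (0.59) and Cxcl2 (0.53). The lowest and highest of these fits gave -2.06 to 0.60 for Ccl2, -0.11 to 0.77 for Ccl3, -0.11 to 0.0049 for Ccl4, -0.19 to 0.80 for Ccl5, -0.10 to 0.45 for Ccl6, -1.66 to 0.59 for Ccl7, -0.33 to 0.42 for Ccl9, -1.54 to 0.53 for Cxcl2 and -1.15 to 0.32 for Cxcl10. The median over the members ran from -0.60 without Dnmt1KO replicate 1 to 0.45 without Dnmt1KO replicate 2. Members without overlap between genotypes numbered 1 to 8 of 9. They numbered 1 without Dnmt1fl/fl replicate 1, 5 without Dnmt1fl/fl replicate 2, 4 without Dnmt1KO replicate 1 and 8 without Dnmt1KO replicate 2, where 39.6%, 46.2%, 64.6% and 82.9% of all genes did not overlap. In these fits the lone sample is assumed to vary like the others. Over all genes the number called moved from 0 to 1 with DESeq2, to 35 at an unadjusted p under 0.05, and to 0 to 1061 with 1 sample left out, 1061 being without Dnmt1KO replicate 2 (2, 10 and 0 without the others). Without Dnmt1KO replicate 2, Dnmt1 passed the threshold (-1.05, edgeR adjusted p = 0.0200). With the replicate block 0 genes and 0 members were called, and 34 genes had an unadjusted p under 0.05. Same-numbered samples did not deviate together (correlation of deviations from the group means -0.35 across genes), and the pairing crossed, added after seeing the data, called 3 genes and 0 members, with 297 genes at an unadjusted p under 0.05. The cause of these differences was not tested. Cxcl1 and Cxcl10 rest on 3 to 34 counts a sample.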
